A study of Mus musculus with 7 samples.

Results

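Transcripts of titin and of Z-disc proteins that stand close to it were followed in each left ventricle, as a named list of 10 genes out of 20927 in the count table. The list holds *Ttn*, *Tcap*, *Csrp3*, *Actn2*, *Ldb3*, *Myoz2*, *Mypn*, *Pdlim5*, *Synpo2l* and *Nexn*, chosen by name and matched through their Ensembl identifiers. RNA-seq counts came from 3 WT and 4 homozygous A178D mice on a C57BL/6J background, with 1 library per ventricle, numbered 1, 3 and 4 in WT and 1 to 4 in A178D. WT libraries held between 41102868 and 54245530 counts and A178D libraries between 33080675 and 52345529. The A178D mice carry, on both copies of *Ttn*, a knock-in of an alanine to aspartate change together with a silent change that makes a restriction site. The allele was made with CRISPR-Cas9 in C57BL/6N embryonic stem cells (JM8F6) expanded as clones, and the mice were crossed back to C57BL/6J before WT and homozygous littermates were bred. Sex and age of the sequenced mice are not given in the sources used here.

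The Z-disc is the border of the sarcomere, where actin filaments of neighbouring sarcomeres are cross-linked by alpha-actinin and where the amino terminus of titin is anchored. Telethonin, the product of *Tcap*, caps the first immunoglobulin domains of titin there, and a ring of LIM, PDZ and actinin-binding proteins links this lattice to signalling in the cardiomyocyte. Variants in several of these genes are known from inherited cardiomyopathy.

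The codon changed in these mice is shown with its reference sequence, since counts per gene cannot tell the alleles apart. *Ttn* (ENSMUSG00000051747) lies on the minus strand of chromosome 2 from 76703980 to 76982547 (GRCm38). In the transcripts Ttn-201, Ttn-202, Ttn-203 and Ttn-205 the codon falls in exon 4, and in Ttn-204, whose model lacks a leading exon, in exon 3. It occupies coding bases 532 to 534, at positions 76974960 to 76974962 within an exon from 76974911 to 76975198. The reference stretch of 63 coding bases, at chr2:76974930-76974992 and read 5′ to 3′ along the minus strand, has the codon in capitals.
Ttn, A178D codon: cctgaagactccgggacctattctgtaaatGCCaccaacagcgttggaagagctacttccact
The stretch was the same in all 5 transcripts with a complete coding sequence.

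None of the 10 transcripts passed the quasi-likelihood test of edgeR between genotypes (p under 0.05 after Benjamini-Hochberg adjustment), where 2.35% of the 13894 tested genes did. At an unadjusted p under 0.05 the test gave 4 members (*Myoz2*, *Csrp3*, *Pdlim5* and *Ttn*), against 16.7% of all tested genes. DESeq2, which called 4.94% of these genes, called 1 member, *Myoz2*, and limma-voom called 0. In the levels, *Csrp3*, *Ldb3*, *Myoz2* and *Pdlim5* had every A178D heart above every WT heart, as did 7.61% of tested genes, and 0 members lay wholly below, against 8.52%. Of the 10 log2 fold changes 7 were above 0, with a median of 0.12, and the median over all tested genes was 0.00226. In whole ventricles, fewer cells of a type and less RNA per cell cannot be told apart.

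**Figure D1:**
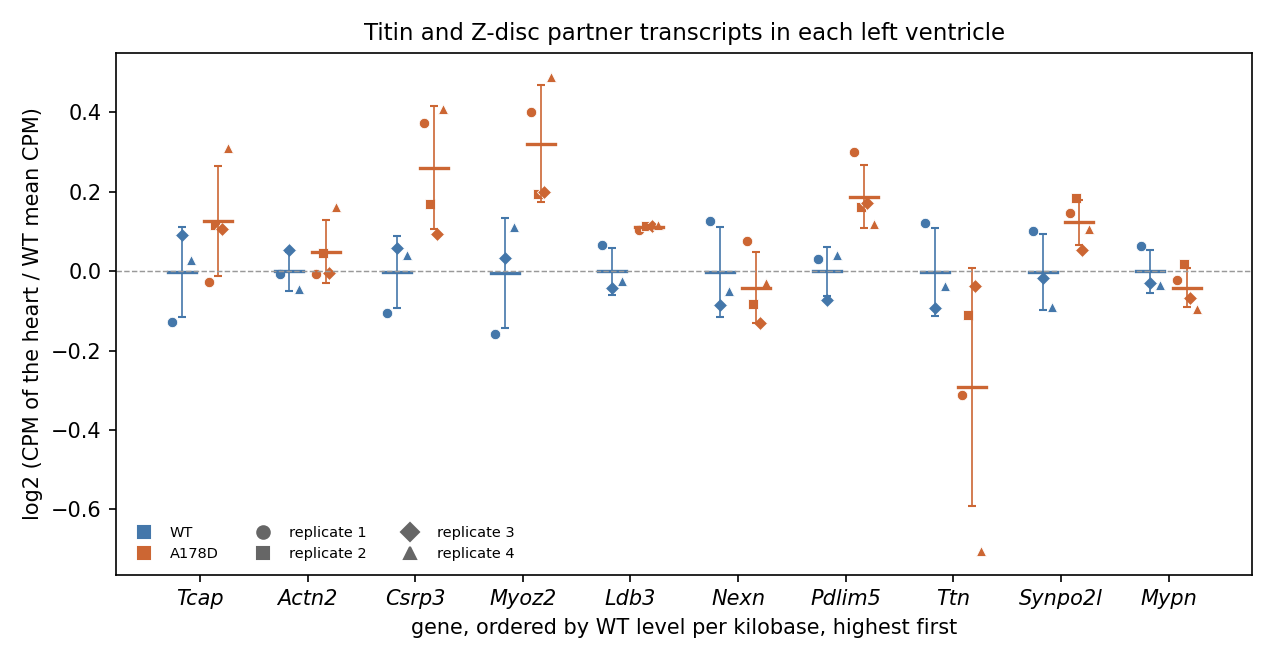
Level of each transcript in each heart as log2 of its CPM (counts per 1000000, scaled between libraries by TMM) over the WT mean, with 3 WT hearts (blue) and 4 A178D hearts (orange); horizontal lines are group means and error bars 1 SD, and the symbol gives the replicate number. *Csrp3*, *Ldb3*, *Myoz2* and *Pdlim5* have no overlap between the genotypes, and *Ttn* has its lowest point in A178D replicate 4.

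Titin itself spans from the Z-disc to the M-band and was the member with the most counts, 132341 to 380786 per library. The level of *Ttn* was 7245, 6247 and 6486 CPM in WT replicates 1, 3 and 4 and 5360.5, 6173, 6489.5 and 4087 CPM in A178D replicates 1 to 4. Replicates 2 and 3 of A178D lay within or close to the WT range, while replicates 1 and 4 lay below it, so that the genotypes overlapped. The log2 fold change was -0.27 (standard error 0.12, 95% interval -0.53 to -0.01, edgeR adjusted p = 0.287), with means of 6659 ± 521 CPM (SD, n = 3) and 5528 ± 1072 CPM (SD, n = 4). Without A178D replicate 4 it was -0.15 (adjusted p = 0.355, within 0.119 to 0.569 over all alternatives).

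The *Ttn* transcript is the second longest among tested genes, with up to 106824 bases, and libraries differed in how counts changed with length. In the 99 other genes with the longest transcripts, all of 13147 bases or more, the median deviation from the 7-heart mean was 0.13, 0.05 and 0.11 (log2) in WT replicates 1, 3 and 4. It was -0.02, 0.06, 0.02 and -0.36 in A178D replicates 1 to 4. For *Ttn* the same deviation was 0.29, 0.08 and 0.13 in WT and -0.15, 0.06, 0.13 and -0.54 in A178D hearts. WT replicate 1 was thus highest and A178D replicate 4 lowest both for *Ttn* and for other long transcripts. The 99 genes had a median log2 fold change of -0.17, and 5 of them were called. With offsets fitted to how counts depended on transcript length and GC content in each library, the log2 fold change of *Ttn* was -0.13 (standard error 0.10, adjusted p = 0.513), and without WT replicate 1 and A178D replicate 4 it was -0.08 (adjusted p = 0.569). The trend fitted at *Ttn* was 0.19, 0.09 and 0.12 (log2) in WT and -0.08, 0.02, 0.08 and -0.08 in A178D hearts, so that in A178D replicate 4 the offset took out less than the -0.36 of the other long transcripts. Every A178D heart had a lower fitted trend than every WT heart, so the offset itself differed with genotype. This fit cannot tell a length trend of the libraries from a difference between the genotypes. The part of transcript length in the lower *Ttn* counts was thus not tested.

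**Figure D2:**
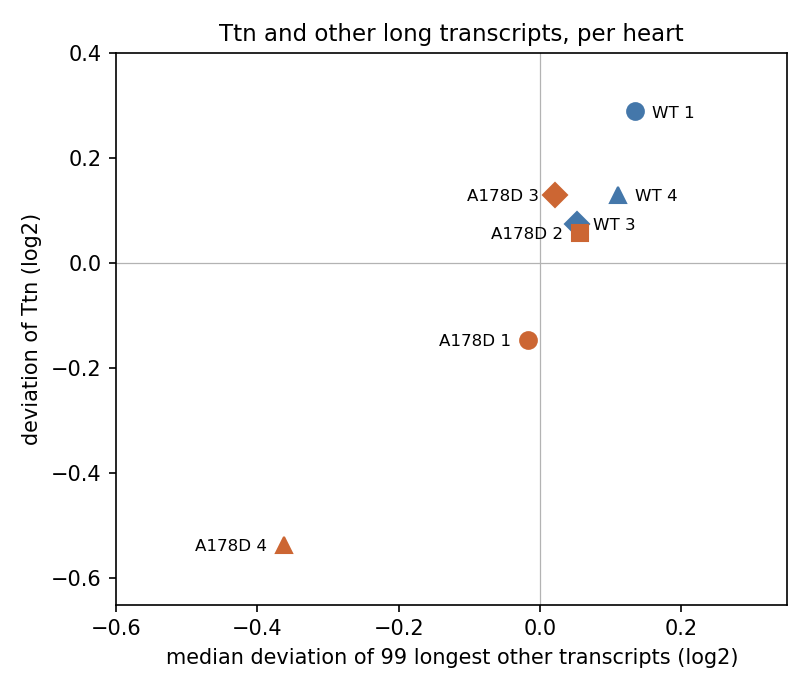
Deviation of *Ttn* from its mean over the 7 hearts (vertical, log2 CPM) against the median deviation of the 99 other genes with the longest transcripts (horizontal, log2 CPM), 1 point per heart, WT in blue and A178D in orange. A178D replicate 4 is lowest on both axes, at -0.36 and -0.54, and WT replicate 1 highest on both, at 0.13 and 0.29.

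Telethonin joins the amino termini of 2 titin molecules and is encoded by *Tcap* (ENSMUSG00000007877, chromosome 11, 98383811 to 98384953). Its level was 2260.2, 2631 and 2521 CPM in WT replicates 1, 3 and 4 and 2424, 2677, 2661 and 3060.5 CPM in A178D replicates 1 to 4. The hearts of the genotypes overlapped, with the lowest value in WT replicate 1 and the highest in A178D replicate 4. The log2 fold change was 0.13 (standard error 0.08, 95% interval -0.05 to 0.31, edgeR adjusted p = 0.460), from 2471 ± 190.3 CPM (SD, n = 3) to 2706 ± 263 CPM (SD, n = 4). With a longest transcript of 948 bases, *Tcap* is shorter than most tested genes, of which 2.99% are shorter still. With the length and GC offsets its log2 fold change was 0.02 (adjusted p = 0.904, within 0.394 to 0.995 over all alternatives), and with 1 heart left out it ran from 0.07 without A178D replicate 4 to 0.18 without A178D replicate 1.

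Within a heart, the ratio of *Tcap* to *Ttn* was taken on CPM per kilobase of exon. It was 38.4, 51.9 and 47.9 in WT replicates 1, 3 and 4 and 55.7, 53.4, 50.5 and 92.3 in A178D replicates 1 to 4. A178D replicate 4 stood far above the other hearts, and replicate 3 lay inside the WT range. The mean ratio was 46.1 ± 6.91 in the 3 WT hearts and 63.0 ± 19.6 in the 4 A178D hearts (SD), and no test was made of it.

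*Csrp3* (ENSMUSG00000030470, chromosome 7, 48830398 to 48848033) encodes muscle LIM protein, which binds telethonin and alpha-actinin. Its level was 1404, 1574 and 1555 CPM in WT replicates 1, 3 and 4 and 1958, 1699, 1612 and 2004 CPM in A178D replicates 1 to 4. All A178D hearts lay above all WT hearts, replicates 1 and 4 most of all and replicate 3 only just. The log2 fold change was 0.27 (standard error 0.08, 95% interval 0.09 to 0.45), and the test did not call it (edgeR adjusted p = 0.123). Without WT replicate 1 and A178D replicate 4 the log2 fold change of *Csrp3* was 0.17 (edgeR adjusted p = 0.229). The group means were 1511 ± 93.5 CPM (SD, n = 3) and 1818 ± 192 CPM (SD, n = 4).

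*Actn2* (ENSMUSG00000052374, chromosome 13, 12269426 to 12340760) encodes the sarcomeric alpha-actinin that cross-links actin filaments and binds the Z-repeats of titin. Its level was 2603, 2713 and 2535 CPM in WT replicates 1, 3 and 4 and 2602, 2700.1, 2608 and 2928 CPM in A178D replicates 1 to 4. Apart from A178D replicate 4, which was highest, the hearts of both genotypes lay side by side. The log2 fold change of 0.05 (standard error 0.06, 95% interval -0.09 to 0.19, edgeR adjusted p = 0.749) was smaller than the spread between hearts, and fell to 0.01 without A178D replicate 4.

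Next to alpha-actinin stand *Ldb3* (ENSMUSG00000021798, chromosome 14, 34526603 to 34588682), which encodes the PDZ and LIM protein ZASP or cypher, and *Pdlim5* (ENSMUSG00000028273, chromosome 3, 142239590 to 142395696), which encodes the related protein ENH. The level of *Ldb3* was 1626, 1507 and 1526 CPM in WT replicates 1, 3 and 4 and 1669, 1679, 1682 and 1683 CPM in A178D replicates 1 to 4. The A178D hearts were nearly equal and all above the WT hearts, of which replicate 1 came closest. Its log2 fold change was 0.11 (standard error 0.06, 95% interval -0.02 to 0.24, edgeR adjusted p = 0.376). For *Pdlim5* the levels were 784, 729 and 788 CPM in WT and 945, 857, 863 and 833 CPM in A178D hearts, in the same order. Again the genotypes did not overlap, with A178D replicate 1 highest and WT replicate 3 lowest. The log2 fold change of *Pdlim5* was 0.19 (standard error 0.07, 95% interval 0.04 to 0.33, edgeR adjusted p = 0.176). With the length and GC offsets, which called 3.63% of tested genes, it was 0.24 and was called (adjusted p = 0.0222, within 0.0222 to 0.450 over all alternatives).

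*Myoz2* (ENSMUSG00000028116, chromosome 3, 123006206 to 123035015) encodes calsarcin-1, a protein that tethers calcineurin to alpha-actinin. Its level was 1032, 1178 and 1243 CPM in WT replicates 1, 3 and 4 and 1519.6, 1316, 1322 and 1616 CPM in A178D replicates 1 to 4. All A178D hearts were above all WT hearts, with replicates 1 and 4 again the highest. The log2 fold change was 0.33 (standard error 0.09, 95% interval 0.14 to 0.52), the highest among the members in edgeR's fit. The group means were 1151 ± 108 CPM (SD, n = 3) and 1444 ± 149 CPM (SD, n = 4). *Myoz2* missed the threshold (edgeR adjusted p = 0.0742) and ranked 468 by p among all tested genes. DESeq2 called it (adjusted p = 0.0153), as did 5 other alternatives. Over all alternatives, with those that did not call it, the adjusted p ran from 0.0130 to 0.206. Without WT replicate 1 and A178D replicate 4 its log2 fold change was 0.20 (adjusted p = 0.126).

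The 3 remaining members are *Mypn* (ENSMUSG00000020067, chromosome 10, 63115795 to 63203952) for myopalladin, *Synpo2l* (ENSMUSG00000039376, chromosome 14, 20658946 to 20668354) for an actinin-binding synaptopodin relative also called CHAP, and *Nexn* (ENSMUSG00000039103, chromosome 3, 152236982 to 152266350) for the actin-binding protein nexilin. The level of *Mypn* was 202, 189.6 and 189 CPM in WT replicates 1, 3 and 4 and 190.5, 196, 185 and 181 CPM in A178D replicates 1 to 4. The level of *Synpo2l* was 199.8, 184 and 175 CPM in WT and 206, 212, 193 and 200.3 CPM in A178D hearts. In *Nexn* it was 672, 580.1 and 595 CPM in WT and 649, 581, 562 and 603 CPM in A178D hearts. WT replicate 1 was the highest WT heart in all 3, and the genotypes overlapped in each. The log2 fold changes were -0.04 (standard error 0.06, 95% interval -0.18 to 0.10) for *Mypn*, 0.12 (0.07, -0.03 to 0.27) for *Synpo2l* and -0.04 (0.07, -0.20 to 0.12) for *Nexn*. None was called, with edgeR adjusted p of 0.805, 0.402 and 0.840.

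Levels of different genes were set side by side as CPM per kilobase of exon. In WT hearts the order was *Tcap* at 2606 ± 200.7 (SD, n = 3), *Actn2* at 689.5 ± 23.7, *Csrp3* at 566 ± 35.0, *Myoz2* at 336 ± 31.5, *Ldb3* at 254 ± 10.5, *Nexn* at 161 ± 12.9, *Pdlim5* at 86.4 ± 3.71, *Ttn* at 57.0 ± 4.46, *Synpo2l* at 40.2 ± 2.72 and *Mypn* at 33.2 ± 1.28. No pair of neighbours in this order overlapped over the 3 WT hearts, and the order was the same per kilobase of the longest transcript. *Tcap* ranked 13 among tested genes by its mean CPM per kilobase, while *Ttn*, which ranked 14 by CPM alone, came to rank 781. The exon length of *Ttn* (116825 bases) takes in exons of all its isoforms, and use of fewer exons in the ventricle would place it higher.

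Over the 7 hearts *Csrp3* and *Myoz2* moved most alike of the 45 pairs of members, with a Pearson r of 0.97 for log2 CPM, and 0.94 after each genotype's mean was removed. *Ttn* ran the other way, with r of -0.91 to *Csrp3* and -0.89 to *Myoz2*. These points share libraries and their length trends, and are given as a description. The 5 genes most like *Ttn*, among 6392 tested genes averaging 1000 counts or more, were *Lpp* (r = 0.996), *Tcf12* (0.994), *Sash1* (0.988), *Dcbld2* (0.987) and *Nfat5* (0.987), with longest transcripts of 6299 to 15459 bases. Most like *Tcap* were *2310061I04Rik* (0.984), *Gmpr* (0.967), *Cdc42se1* (0.951), *Aph1a* (0.950) and *Zpr1* (0.949), and their longest transcripts had 1580.0 to 2984 bases. The genes closest to *Csrp3* were *Naa20* (0.984), *Coq9* (0.980), *Tgm2* (0.976), *Gpn1* (0.975) and *Arfgap2* (0.975). None of these 15 genes was called by edgeR, which called 2.35% of tested genes, but they were picked for likeness to members that were not called.

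For the pair that moved most alike, and for *Ttn* beside them, the 250 bases before a transcription start are printed, from RefSeq on GRCm38.p6. All lie on the minus strand and read 5′ to 3′ towards the start, *Csrp3* at chr7:48848052-48848301, *Myoz2* at chr3:123034988-123035237 and *Ttn* at chr2:76982548-76982797. Capitals mark matches, on either strand, to TATATA or to the consensus of the myocyte factor MEF2. Another *Csrp3* entry, at chr7:48843672-48843921, held neither of these and is not printed.
Csrp3: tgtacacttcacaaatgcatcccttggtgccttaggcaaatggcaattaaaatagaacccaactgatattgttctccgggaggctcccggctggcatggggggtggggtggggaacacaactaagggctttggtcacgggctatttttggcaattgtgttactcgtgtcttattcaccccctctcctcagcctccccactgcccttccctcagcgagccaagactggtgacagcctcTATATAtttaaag
Myoz2: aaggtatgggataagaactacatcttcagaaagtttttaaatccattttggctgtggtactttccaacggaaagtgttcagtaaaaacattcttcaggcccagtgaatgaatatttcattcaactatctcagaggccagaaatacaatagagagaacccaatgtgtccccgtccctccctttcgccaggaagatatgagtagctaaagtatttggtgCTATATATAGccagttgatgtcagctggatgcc
Ttn: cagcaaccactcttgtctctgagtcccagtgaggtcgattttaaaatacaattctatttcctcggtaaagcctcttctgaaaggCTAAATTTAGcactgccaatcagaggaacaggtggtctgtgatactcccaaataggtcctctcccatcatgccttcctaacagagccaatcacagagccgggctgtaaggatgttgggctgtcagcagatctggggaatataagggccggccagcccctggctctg
TATATA stood 13 to 8 bases before the RefSeq start in *Csrp3* and in overlapping copies inside the MEF2 match of *Myoz2*, and 5.25% of 32851 promoters of this length held it. GENCODE places the 5′ ends of these genes elsewhere, at 48848033 for *Csrp3* and 123035015 for *Myoz2*, so distances depend on the start used. The printed *Myoz2* bases reach into the GENCODE gene, whose 5′ end falls inside the MEF2 match. The MEF2 consensus occurred in 2.92% of them and, among the members, in *Myoz2*, *Ttn* and *Synpo2l*. Promoters were found for 8 of the 10 members, in 12 entries, and not for *Tcap* and *Nexn*. The motif TATAAA was in 12.4% of all promoters and in those of *Mypn* and *Pdlim5*. CACGTG was in 6.02% and in that of *Actn2*, and CATTCC in 12.6% and in that of *Mypn*. AGATAA was in 9.99% and in no member. The CArG box, found in 1.47% of promoters, occurred in *Ldb3* alone.

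Of a list of 40 other Z-disc genes 38 were tested, and edgeR called 4 higher and 0 lower in A178D hearts, where it called 2.35% of all tested genes in either direction. The list also holds *Myom1* (0.06, edgeR adjusted p = 0.635), for myomesin, which binds titin away from the Z-disc. DESeq2 called 7 higher and 1, *Pdlim3*, lower (-0.47 in edgeR, adjusted p = 0.0654, and 0.0157 in DESeq2), and of the 8 alternatives run for the lists 6 called *Pdlim3* lower. *Ankrd1* (0.67, edgeR adjusted p = 0.0591) was called higher by limma-voom, with no filter, with the replicate block, with offsets and this block, and without WT replicate 1 and A178D replicate 4. The last 2 fits called 8 and 9 genes of the list higher, where they called 2.72% and 5.53% of all genes. The median log2 fold change of the 38 genes was 0.08, beside 0.00226 over all tested genes. *Myot*, which encodes myotilin, an actinin and filamin binder of the Z-disc, rose by 0.84 (log2, standard error 0.14, edgeR adjusted p = 0.00875), from 83.6 ± 11.5 CPM (SD, n = 3) to 149.7 ± 32.0 CPM (SD, n = 4). *Lmcd1*, for a LIM protein that acts on calcineurin signalling, rose by 0.51 (standard error 0.10, adjusted p = 0.0167), from 45.2 ± 5.75 to 64.6 ± 6.47 CPM. *Cavin4*, for a caveolar protein of muscle, rose by 0.43 (standard error 0.10, adjusted p = 0.0330), from 136.5 ± 19.0 to 183 ± 16.2 CPM. *Neb*, for the giant thin filament protein nebulin of skeletal muscle, rose by 1.21 (standard error 0.24, adjusted p = 0.0200) from a low level of 6.94 ± 2.35 to 15.9 ± 4.66 CPM. In all 4 genes every A178D heart was above every WT heart. With 1 of the 7 hearts left out at a time, *Myot* stayed called in 6 fits, and not without WT replicate 3 (adjusted p = 0.0721). *Lmcd1* was called in 4 and not without WT replicate 3 (0.110), WT replicate 4 (0.0975) or A178D replicate 1 (0.0555). *Neb* was also called in 4, and not without WT replicate 4 (0.0957), A178D replicate 1 (0.0574) or A178D replicate 3 (0.0530). *Cavin4* was called in 2, without WT replicate 1 or A178D replicate 4, and its adjusted p reached 0.189 in the others. With the length and GC offsets *Cavin4* was not called (0.0538), and the other 3 were.

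The most abundant of these other Z-disc genes per kilobase were *Cryab*, for the small heat shock protein alpha B-crystallin, *Fhl2*, for a LIM protein that binds titin, and *Des*, for the intermediate filament desmin. Their WT levels were 1304, 1167 and 654 CPM per kilobase. *Cryab* had every A178D heart above every WT heart, with a log2 fold change of 0.25 and an edgeR adjusted p of 0.0789. DESeq2 called it (0.0198), no fit without a single heart did, and with the length and GC offsets it was 0.14 (0.153). *Fhl2* and *Des* overlapped between the genotypes, with log2 fold changes of 0.09 (adjusted p = 0.653) and 0.08 (adjusted p = 0.644), both under 0 without WT replicate 1 and A178D replicate 4 (-0.038 and -0.0079).

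Among 16 paralogues of the members, 15 were tested and edgeR called 1, *Myot*, with a median log2 fold change of -0.09 over the list. Several paralogues, *Myot*, *Pdlim1* and *Pdlim3* among them, are also in the list of other Z-disc genes, so their calls are counted in both. DESeq2 called *Myot* and *Pdlim1* (0.00736) higher and *Csrp2* (0.0123) and *Pdlim3* (0.0157) lower, and the length and GC offsets called *Myot* and *Pdlim1* (0.0275) higher and *Csrp2* (0.0199) lower. *Myot* was also the most abundant per kilobase at 37.9 CPM per kilobase in WT, followed by *Csrp1* at 34.7 and *Actn4* at 24.9, which encode a smooth muscle LIM protein and a non-muscle actinin. In CPM the level of *Csrp1* was 67.9 ± 7.08 in WT and 63.6 ± 4.35 in A178D hearts (edgeR adjusted p = 0.615), and that of *Actn4* 152 ± 14.1 and 134 ± 6.01 (adjusted p = 0.229). *Myoz3*, a skeletal muscle relative of *Myoz2*, did not pass the filter on low counts.

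Marker lists were read to see whether the tissue itself differed. All 15 cardiomyocyte markers were tested, and *Myh6*, the main cardiac myosin heavy chain, was the most abundant. Their summed level was 152931, 161588 and 162604 CPM in WT replicates 1, 3 and 4 and 157999, 155779, 153646 and 168737 CPM in A178D replicates 1 to 4, with overlap between the genotypes. By level, 6 of the 15 did not overlap between the genotypes, where 7.61% of all tested genes lay wholly above and 8.52% wholly below. *Myh6* lay wholly below (-0.11, edgeR adjusted p = 0.378), and *Actc1* (0.13, 0.293) and *Tnnc1* (0.19, 0.282) wholly above. Of the 15 log2 fold changes 9 were above 0, and edgeR gave 5 markers at an unadjusted p under 0.05, against 16.7% of tested genes. *Mybpc3*, for cardiac myosin-binding protein C, was the 1 called marker, higher by 0.30 (edgeR adjusted p = 0.0230). With hearts left out singly it was called in 3 of 7 fits, and not without WT replicate 3 (0.111), WT replicate 4 (0.1197), A178D replicate 1 (0.0872) or A178D replicate 3 (0.0510). With the replicate block *Mybpc3* was not called either (0.0574). The fit without WT replicate 1 and A178D replicate 4, which called 5.53% of all genes, called *Mybpc3* higher and *Atp2a2* lower. The 10 members together summed to 18027, 17533 and 17612 CPM in WT and 17525, 18091, 18178 and 17197 CPM in A178D hearts.

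Of 10 markers of smooth muscle and pericytes, all tested, 6 were called lower and 0 higher. All 6 were contractile genes of smooth muscle. Among the pericyte markers, *Abcc9* was the most abundant of the list (adjusted p = 0.513). *Rgs5* had a log2 fold change of -0.33, with every A178D heart below every WT heart, and edgeR did not call it (0.0653). DESeq2 called *Rgs5* (0.0140) and *Pdgfrb* (0.0284) lower, and *Rgs5* was also called with no filter (0.0400), with the length and GC offsets (0.0199), with these and the replicate block (0.0424) and without WT replicate 1 and A178D replicate 4 (0.00983), but not by limma-voom (0.0628) or with the replicate block alone (0.0998). *Acta2* and *Tagln*, the contractile markers called in every fit without a single heart, had log2 fold changes of -0.59 and -0.62, and the other 4 (*Myh11*, *Mylk*, *Lmod1* and *Cnn1*) were called in 1 to 5 of these 7 fits. Without WT replicate 1 and A178D replicate 4, *Cnn1* (0.0792), *Mylk* (0.0672) and *Lmod1* (0.0805) were not called. *Cnn1* was also lost with the replicate block (0.0617), and *Cnn1* (0.0602) and *Mylk* (0.0666) with the offsets and this block. The summed level was 1390.3, 1408 and 1386 CPM in WT replicates 1, 3 and 4 and 1069.7, 1164, 1239 and 983 CPM in A178D replicates 1 to 4, lowest in A178D replicates 4 and 1, where *Csrp3* and *Myoz2* were highest. Of 8 fibroblast markers *Col3a1* was called higher (0.62), *Dcn* was the most abundant, and the summed level was 1178, 1205 and 1090.2 CPM in WT and 1407, 1332, 1277 and 1297 CPM in A178D hearts. *Col3a1* was not called without WT replicate 3 (edgeR adjusted p = 0.113) or A178D replicate 1 (0.0840), 2 (0.0672) or 3 (0.0712), and DESeq2 also called *Col1a1* higher. The part of these cell types in the members' values was not tested. EdgeR called no gene among 8 endothelial markers (*Kdr* most abundant), 8 macrophage markers (*Csf1r*) or 4 erythrocyte genes (*Hbb-bs*), where by unadjusted p under 0.05 it gave 0, 4 and 0, beside 16.7% of all tested genes. Of the macrophage markers 7 were above 0, and DESeq2 called *C1qb* (0.0151) and *Adgre1* (0.0458) higher. DESeq2 on every deposited entry did not call *Adgre1* (0.0503). *Cd163* had a log2 fold change of -0.32 (edgeR adjusted p = 0.288) and was called lower without WT replicate 1 and A178D replicate 4 (0.0327). That fit also called *Kdr* higher (0.0127), and the offsets with replicate block called the endothelial marker *Vwf* higher (0.0268). Of 6 atrial markers 3 were tested, *Nppa* was the most abundant and was called higher (1.31), though not without WT replicate 3 (0.0860), WT replicate 4 (0.0598) or A178D replicate 1 (0.0555), and *Bmp10* was at 0 in every library. Of 11 skeletal muscle markers 6 were tested, and *Acta1*, also made by cardiomyocytes, was the most abundant and was called higher (2.64), also without any 1 heart, while the fast myosins *Myh1* and *Myh4* were at 0 in some libraries.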

How the data were processed

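Left ventricles of 3 WT and 4 A178D mice were grouped by genotype from the sample titles, 1 stranded mRNA library each. The authors deposited raw counts per gene without normalization, and a second deposited table was not used. The submitters' processing notes name HISAT2 2.1.0, SAMtools 1.6, bcl2fastq 2.18.0.12, DESeq2 1.26.0 and GRCm38, and the counting program is not given in the sources used here. Members and gene lists were chosen with earlier results of these data known. The lists cover the 10 members, other Z-disc genes, paralogues, 8 cell types and 2 sets of clock genes.

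Of 21257 entries, sets that repeat the same counts in all libraries (30 counts or more in total) were reduced to 1, and entries with fewer counts only where the identifier was repeated too, which left 20927. Names, positions and lengths came from GENCODE release M21. Genes that reached 10 counts in 3 or more libraries were tested with edgeR 4.0.16 (TMM, glmQLFit, glmQLFTest, R 4.3.3), two-sided, with Benjamini-Hochberg adjustment over all tested genes. CPM are counts scaled by TMM, and CPM per kilobase divides them by the union of exons. Alternatives were DESeq2 1.42.0, limma-voom (limma 3.58.1), DESeq2 size factors, other filters, the replicate number as a block, the table as deposited, counts halved, leaving out each library, and offsets from length and GC trends (mgcv 1.9.3). DESeq2 on every deposited entry, and the fit without WT replicate 1 and A178D replicate 4, were chosen after seeing the data. The fits were tested on simulated data.

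Genes named are the members, every called gene and the 3 with the highest level per length of the other Z-disc genes and paralogues, the 5 genes most like *Ttn*, *Tcap* and *Csrp3*, and of each marker or clock list its most abundant gene, members at 0 in every library and called members where there are 5 or fewer. *Myoz3*, *Myh1*, *Myh4*, *Nr1d1*, *Nr1d2*, *Rgs5*, *Pdgfrb*, *Pdlim1*, *Pdlim3*, *Ankrd1*, *Csrp2*, *C1qb*, *Adgre1*, *Cd163*, *Vwf*, *Col1a1*, *Actc1*, *Tnnc1*, *Atp2a2*, *Myom1*, the 6 called smooth muscle genes and the most alike pair were named after their values were seen. An antisense gene overlaps *Ttn*, and a miRNA and an unclassified gene overlap *Myoz2* and *Nexn*. None of these 3 is listed in the count table, and whether counting used strand is not given in the sources used here. Among counts from 1 to 20, between 17.6 and 20.3% were odd in a library, so that low counts hold fewer molecules than their size. Isoforms of a gene cannot be told apart in these counts.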

Additional observations from a re-analysis of the deposited data

Results flagged for a closer look

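Among 31 groups of 4 A178D values (members, ratios between members and summed marker lists), 1 held a heart far from the other 3 by Dixon's ratio of gap to range, and chance gives about 1 in 20. The ratio of *Tcap* to *Ttn*, on CPM per kilobase, reached 92.3 in A178D replicate 4, while the remaining A178D hearts lay between 50.5 and 55.7. The same heart had the lowest *Ttn* (4087 CPM) and the highest *Tcap* (3060.5 CPM), and the 99 other longest transcripts were lowest in it, at -0.36 (log2). It was also the shallowest library, with 33080675 counts. Groups of 3 WT hearts were not examined in this way.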

How the results depend on the processing

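Of 190 member values under 19 alternatives, 176 kept their direction and their side of the threshold, 9 passed it (*Myoz2* in 6, *Pdlim5* in 2 and *Csrp3* in 1) and 5 changed sign. Members called were 1 with DESeq2, with no filter on low counts and with the replicate block, and 2 with the length and GC offsets, with these and the replicate block, and with DESeq2 on every deposited entry. The last called *Csrp3* (adjusted p = 0.0475). Of all genes in these fits, 5.14% were called with DESeq2 (of 13355), 2.62% with no filter and 1.95% with the replicate block. The share was 3.63% with the offsets, 2.72% with these and the replicate block, and 5.13% with DESeq2 on every deposited entry. Changes of sign were all in values near 0: *Tcap* -0.0012 with offsets and replicate block, *Mypn* 0.00017 with offsets and 0.0097 without WT replicate 1 and A178D replicate 4, and *Nexn* 0.025 without both hearts and 0.030 without WT replicate 1 (over fits without single hearts, -0.081 to 0.030 for *Nexn* and -0.058 to -0.0056 for *Mypn*). No fit that left out 1 heart called a member, and the log2 fold change then ranged from -0.35 to -0.15 for *Ttn*, 0.07 to 0.18 for *Tcap*, 0.22 to 0.32 for *Csrp3*, 0.01 to 0.08 for *Actn2*, 0.09 to 0.15 for *Ldb3*, 0.26 to 0.39 for *Myoz2*, 0.15 to 0.21 for *Pdlim5* and 0.08 to 0.18 for *Synpo2l*.

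EdgeR called 145 genes higher and 182 lower. DESeq2 called 306 and 380, DESeq2 on every deposited entry 295 and 389, the fit with no filter 190 and 246, the offsets 228 and 277, the offsets with replicate block 191 and 187, the fit without WT replicate 1 and A178D replicate 4 353 and 407, and an adjusted p under 0.01 left 24 and 40. Leaving out 1 heart gave 22 to 215 higher and 31 to 238 lower. These counts were 22 and 31 without WT replicate 3, 40 and 42 without WT replicate 4, 40 and 50 without A178D replicate 1, and 78 and 112 without A178D replicate 3, while 115 were lower without A178D replicate 2. Genes without overlap between genotypes, 2242 in all, were counted under 3 alternatives, with 2237 by DESeq2 size factors, 2343 with no filter and 2176 with 10 counts required in every library. The causes were not tested.

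Same-numbered hearts did not deviate together (r = 0.10, -0.20 and -0.10 for numbers 1, 3 and 4), so the numbers were not taken as pairs. With the replicate block, in which A178D replicate 2 has no partner, *Myoz2* had 0.37 (adjusted p = 0.0480) and *Ttn* -0.35 (0.119), with 124 genes higher and 147 lower. The lowest count of a member in any library was 5865.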

Other observations

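Of 5 clock genes of the *Arntl* phase, all tested, *Arntl* was called higher in A178D hearts (log2 fold change 1.77, edgeR adjusted p = 0.0115) and *Cry1* lower (-0.51, adjusted p = 0.0328), and *Clock* was the most abundant. *Clock* was called higher with the length and GC offsets, with these and the replicate block, and without WT replicate 1 and A178D replicate 4. Of 10 clock genes of the opposite phase, 4 were called lower and 0 higher: *Per2* (-0.88, adjusted p = 0.00620), *Per3* (-0.47), *Hlf* (-0.42) and *Tef* (-0.39), the most abundant. In this list 3 genes were above 0, most of all *Nr1d1* (0.51, adjusted p = 0.0717). DESeq2 (0.00726), the replicate block (0.0175) and the offsets with this block (0.0223) called *Nr1d1* higher. So did the fit with no filter (0.0330) and that without WT replicate 1 and A178D replicate 4 (0.0000121). It was not called by limma-voom, with the offsets alone or by DESeq2 on every deposited entry. Of 7 fits without a single heart 1 called it (highest adjusted p 0.288). *Nr1d2* was called lower by DESeq2, also on every deposited entry, with no filter, with the offsets alone and without both hearts. The summed level of the 10 genes was 1183, 1182 and 1219 CPM in WT replicates 1, 3 and 4 and 924, 1045, 1120.2 and 1084 CPM in A178D replicates 1 to 4, without overlap between the genotypes. The time of day of tissue collection is not given in the sources used here, and its part in the members' values was not tested. Without WT replicate 3 the adjusted p of *Per2* was 0.0525, that of *Arntl* 0.0823 and that of *Cry1* 0.187. Calls of *Per3*, *Tef* and *Hlf* were lost with WT replicate 3 left out (0.0890, 0.0890 and 0.116), with WT replicate 4 left out (0.0937, 0.0873 and 0.149) and with A178D replicate 1 left out (0.0555, 0.0574 and 0.0907). *Arntl* and *Cry1* were also lost with WT replicate 4 left out (0.0761 and 0.129), and *Cry1* with A178D replicate 1 (0.112) or 3 (0.0899) left out.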
